A study of Vitis vinifera with 8 samples.

Results

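Anthocyanins are the red and purple pigments of grape skin, and 6 genes of their synthesis and transport were followed in berries of Vitis vinifera at 2 developmental stages and 2 temperatures. The 6 genes are CHI, F3'H, DFR, LDOX, UFGT and GST4, chosen by name and matched through their numeric NCBI gene IDs (100233078, 100232999, 100233141, 100233142, 100233099 and 100232976) among the 25771 genes listed in each library. Each symbol was carried by 1 listed gene. All 6 entered the tests, which covered the 16777 genes with at least 1 RPKM (reads of a gene divided by its length and by the reads of its library) in at least 2 libraries.

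The fruit came from potted L1 Pinot Meunier microvines, dwarf grapevines of a single clonal line, held in a growth room at 16 °C, and the berries had their seeds removed before mRNA was prepared. The 4 groups, with 2 biological replicates each, were post-véraison berries (12 to 14 weeks after flowering) at 38 °C, post-véraison berries at 16 °C, pre-véraison berries (5 to 6 weeks) at 38 °C and pre-véraison berries at 16 °C. At véraison the green phase of berry growth ends and ripening begins, with softening, sugar and, in dark cultivars, colour. Berries at 16 °C were taken at 9 AM; the room was then set to 38 °C and the heated berries were taken 1 hour later, at 10 AM, so that heat and the hour of the day cannot be told apart in any heat comparison.

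In the flavonoid pathway chalcone synthase makes a chalcone, which CHI closes to a flavanone. F3'H adds a hydroxyl group to the side ring and so feeds the cyanidin type of pigment, against F3'5'H, which feeds the delphinidin type. DFR reduces dihydroflavonols to leucoanthocyanidins and LDOX oxidises these to coloured anthocyanidins. UFGT then attaches glucose, the step that makes stable anthocyanins in grape skin, and GST4 encodes a glutathione S-transferase that is needed to carry them into the vacuole. LDOX is not specific to pigment, because its products also serve ANR, which makes the epicatechin units of the tannins that young berries accumulate.

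The libraries held between 6047199 and 11243341 reads, as worked out from the spacing of low RPKM values. The ripening genes MRIP1 and TL3 were higher and the chloroplast genes CHLH and PSBP1 lower in post-véraison berries at both temperatures. The heat genes HSP101 and HSFA2 were higher at 38 °C at both stages. All these calls were by limma's adjusted test (the largest adjusted p was 1.5e-05), so the libraries followed their labels. The ripening gene GRIP22 was also higher, but it entered the tests only through post-véraison libraries, so its direction was fixed in advance. Symbols on a list of seed markers matched no listed gene, so left-over seed was not tested. Replicates of a group correlated across genes at Pearson's r between 0.988 and 0.992 on the log2 scale.

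Among the 6 genes, UFGT and GST4, the last steps, stood furthest apart between the stages. UFGT had 55.4 and 35.8 RPKM in post-véraison berries at 38 °C and 42.1 and 39.2 RPKM in post-véraison berries at 16 °C, against 0.088 and 0 RPKM in pre-véraison berries at 38 °C and 0 and 0.097 RPKM in pre-véraison berries at 16 °C. In reads, these were 765 and 530, 502 and 644, 1 and 0, and 0 and 1, in the same order. Each pre-véraison temperature thus had a single UFGT read in one of its libraries and none in the other. A count of 0 allowed up to 0.233 RPKM in the heated and up to 0.340 RPKM in the unheated pre-véraison library (3 reads, counting error only).

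GST4, the transport gene, behaved in the same way at a higher level. It had 405 and 351 RPKM in post-véraison berries at 38 °C and 332 and 325 RPKM at 16 °C, which placed it between rank 141 and rank 188 of all listed genes in those libraries. In pre-véraison berries it had 0.589 and 0.130 RPKM at 38 °C and 0.571 and 0 RPKM at 16 °C, from 4, 1, 3 and 0 reads, and the count of 0 allowed up to 0.490 RPKM. No pre-véraison library came within reach of a post-véraison one for either gene. For all 6 genes the stages did not overlap at either temperature, as for 85.7% of all tested genes at 38 °C and 85.9% at 16 °C.

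CHI, the earliest of the 6 steps, had 92.4 and 92.9 RPKM in post-véraison berries at 38 °C and 79.7 and 78.7 RPKM at 16 °C, against 11.6 and 12.5 RPKM in pre-véraison berries at 38 °C and 12.9 and 12.2 RPKM at 16 °C. Its replicates lay close together in every group, and the stages did not overlap.

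F3'H was well expressed at both stages. It had 118 and 117 RPKM in post-véraison berries at 38 °C, 160 and 146 RPKM in post-véraison berries at 16 °C, 51.7 and 54.4 RPKM in pre-véraison berries at 38 °C and 57.9 and 71.5 RPKM in pre-véraison berries at 16 °C. The heated libraries lay below the unheated ones at both stages, and every post-véraison library lay above every pre-véraison one. DFR had 52.3 and 55.0 RPKM in post-véraison berries at 38 °C, 43.8 and 39.4 RPKM in post-véraison berries at 16 °C, 25.2 and 24.2 RPKM in pre-véraison berries at 38 °C and 25.8 and 23.1 RPKM in pre-véraison berries at 16 °C. The heated and unheated libraries of DFR overlapped before véraison and did not overlap after it.

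LDOX ran the other way on this scale. It had 76.4 and 53.6 RPKM in post-véraison berries at 38 °C and 63.8 and 49.7 RPKM at 16 °C, against 86.9 and 93.3 RPKM in pre-véraison berries at 38 °C and 104 and 94.0 RPKM at 16 °C. The pre-véraison libraries were all above the post-véraison ones, and the heated post-véraison pair was spread most widely.

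**Figure D1:**
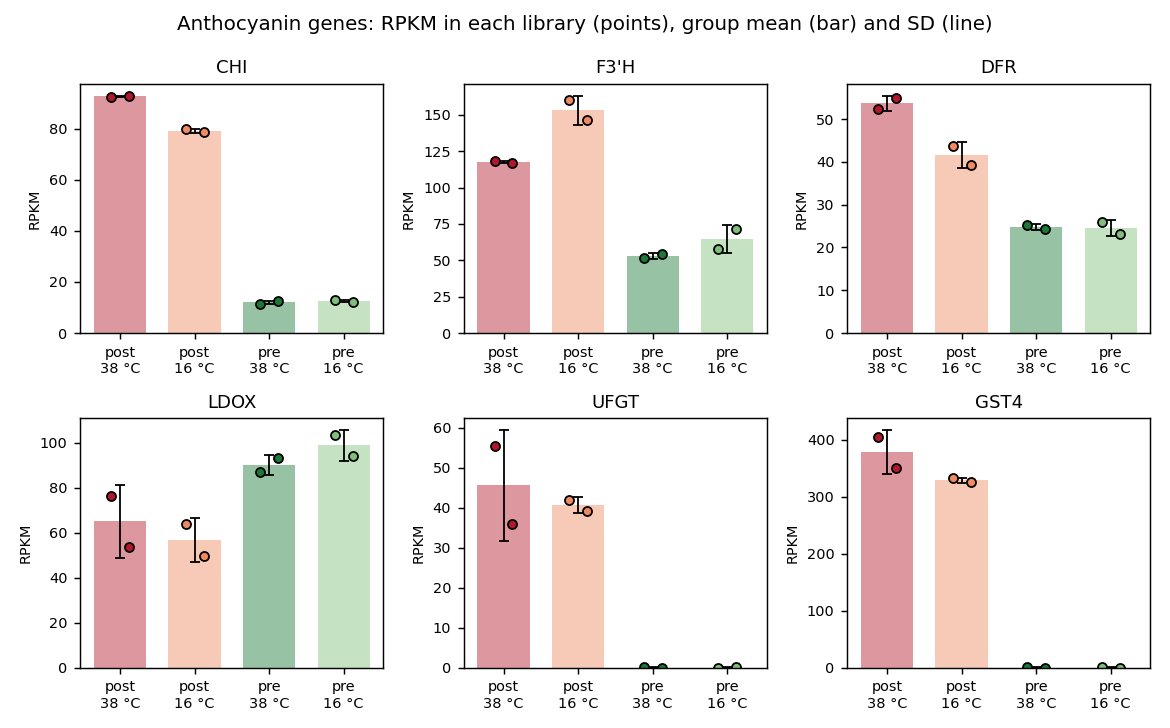
RPKM of each of the 6 anthocyanin genes (1 panel per gene, vertical axis in RPKM from 0) in post-véraison berries at 38 °C and 16 °C and pre-véraison berries at 38 °C and 16 °C; points are the 2 libraries of a group, bars the group mean and lines the SD. UFGT and GST4 are near 0 before véraison, CHI, F3'H and DFR are higher after it, and LDOX is lower after it on this scale, a difference that with median-ratio scaling is not called and, at 38 °C, changes sign (0.0061).

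Because RPKM is per length, levels of different genes can be set side by side. In pre-véraison berries at 16 °C the order of the group means in RPKM was LDOX (98.7 ± 6.75), F3'H (64.7 ± 9.62), DFR (24.5 ± 1.91), CHI (12.6 ± 0.492), GST4 (0.285 ± 0.404) and UFGT (0.0486 ± 0.0687; SD, n = 2 throughout). GST4 and UFGT overlapped there, and no other neighbours did. In post-véraison berries at 16 °C the order of the means was GST4 (329 ± 4.87), F3'H (153 ± 10.1), CHI (79.2 ± 0.718), LDOX (56.8 ± 9.93), DFR (41.6 ± 3.11) and UFGT (40.6 ± 2.02), and only DFR and UFGT overlapped. The heated groups kept the order of the unheated group of their stage, with LDOX, DFR and UFGT all overlapping in the heated post-véraison berries. LDOX was thus the fourth of the 6 after véraison and the first before it, while GST4 was the first after véraison and the fifth before it.

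The sum of the 6 genes was 800 and 705 RPKM in post-véraison berries at 38 °C and 722 and 679 RPKM at 16 °C, against 176 and 185 RPKM in pre-véraison berries at 38 °C and 201 and 201 RPKM at 16 °C. The level of UFGT relative to LDOX, which stands one step before it, was 0.724 and 0.668 in post-véraison berries at 38 °C and 0.660 and 0.788 at 16 °C. It was at most 0.00103 in the pre-véraison libraries, where LDOX supplied 865 to 1138 reads per library. For DFR over LDOX the ratio was 0.685 and 1.02 in post-véraison berries at 38 °C and 0.686 and 0.791 at 16 °C, against 0.290 and 0.259 in pre-véraison berries at 38 °C and 0.250 and 0.246 at 16 °C. A ratio within a library does not change when all values of the library are scaled by 1 factor. These steps therefore differed from one another between the stages under any scaling of that kind.

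The first comparison asked how the 2 stages differ in unheated berries. By limma on log2(RPKM + 1), fitted over all 8 libraries with Benjamini-Hochberg adjustment over all tested genes, 5 of the 6 genes were called higher and 1 lower after véraison at 16 °C, at an adjusted p under 0.05. Of all tested genes, 71.9% were called at this comparison, 14.9% higher and 57.0% lower, so being called at all was common and being called higher was not. The median of all tested genes was itself −0.52 on the log2 scale. UFGT and GST4 passed the filter on low values only through the post-véraison libraries, so that their part in the count was fixed by the filter; of the other 4 genes, 3 were higher and 1 lower. In whole berries, fewer cells of a type and less RNA per cell cannot be told apart.

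GST4 differed by 8.04 ± 0.21 (SE) log2 units (limma adjusted p = 2.05e-09), the fourth highest difference of all tested genes, and UFGT by 5.31 ± 0.20 (adjusted p = 1.3e-08). These sizes depend on the pseudocount, since the pre-véraison values are near 0. As rates of reads, GST4 had 5539 reads after véraison and 3 before it at 16 °C, a ratio of 1245 with a 95% interval from 426 to 6041, and UFGT had 1146 reads and 1, a ratio of 773 with an interval from 138 to 30559 (exact conditional binomial interval, counting error only). CHI was 2.56 ± 0.10 log2 units higher (adjusted p = 1.3e-08), F3'H 1.24 ± 0.11 (4.4e-06) and DFR 0.74 ± 0.10 (1.05e-04). By reads these were ratios of 6.30, 2.33 and 1.69.

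LDOX was the gene called lower, at −0.80 ± 0.17 log2 units (limma adjusted p = 0.0015), and with median-ratio scaling it was at −0.20 (adjusted p = 0.34, the highest over the alternatives, whose lowest was 8.1e-05) and not called. Against the median of all tested genes it stood at −0.27. Median-ratio scaling, which sets the libraries by the middle of all genes, moved that median by 0.51 log2 units and quantile normalization by 0.58. With it the calls over all genes became 5293 higher and 5674 lower, and with quantile normalization 5635 and 5291, where RPKM as deposited gave 2498 and 9557. Very abundant ripening genes moved with the stage, and their part in this shift was not tested: MRIP1 averaged 15792 ± 106 RPKM in post-véraison berries and 208 ± 17.9 RPKM in pre-véraison berries at 16 °C, and TL3 averaged 13033 ± 194 and 161 ± 37.9 RPKM (SD, n = 2 each). CHI, F3'H and DFR were called higher under both scalings, as were UFGT and GST4, whose direction was fixed by the filter.

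At 38 °C the stage comparison gave the same 5 genes higher and LDOX lower, against 70.3% of all tested genes called, 17.2% higher and 53.0% lower. UFGT and GST4 passed the filter only through the post-véraison libraries, so their direction was fixed by the filter here too. Of the others, CHI, F3'H and DFR were higher and LDOX lower. The differences were 8.14 ± 0.21 for GST4, 5.45 ± 0.20 for UFGT, 2.85 ± 0.10 for CHI, 1.13 ± 0.11 for F3'H and 1.09 ± 0.10 for DFR, with limma adjusted p-values no higher than 8.6e-06. GST4 had 6419 reads after véraison and 5 before it, a rate ratio of 1090 (95% interval 467 to 3360), and UFGT had 1295 and 1, a ratio of 1100 (197 to 43480). LDOX was at −0.49 ± 0.17 (adjusted p = 0.023) against a median of all genes of −0.45, and with median-ratio scaling it was at 0.0061 (adjusted p = 0.98), on the other side of 0. The LDOX call was also lost without pre-véraison 38 °C replicate 1 (adjusted p = 0.066) or 2 (0.12) and without post-véraison 38 °C replicate 2 (−0.23, adjusted p = 0.24), and over all alternatives the adjusted p ran from 0.0036 to 0.98. Over all genes the scaling changed the split from 2889 higher and 8900 lower to 5331 and 5849 with median-ratio scaling and 5717 and 5294 with quantile normalization.

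**Figure D2:**
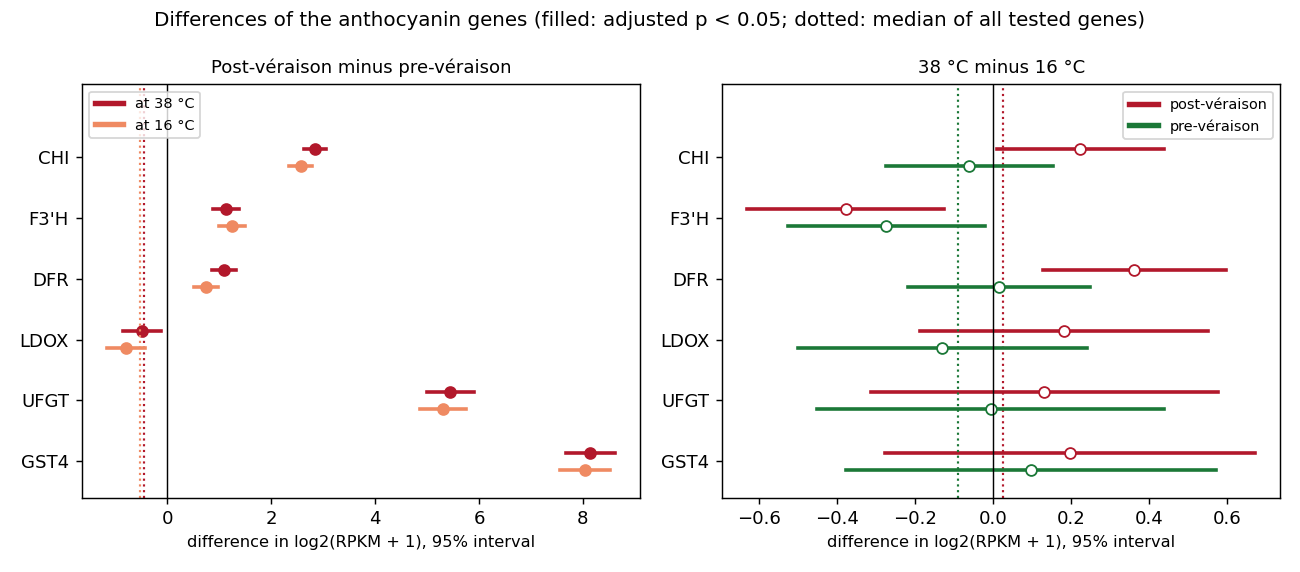
Difference in log2(RPKM + 1) of each anthocyanin gene with its 95% interval: post-véraison minus pre-véraison berries at 38 °C and 16 °C (left), and 38 °C minus 16 °C in post-véraison and pre-véraison berries (right). Filled points passed limma's adjusted p of 0.05 and dotted lines give the median of all tested genes; the stage differences of LDOX, −0.49 and −0.80, lie nearest that median and are not called with median-ratio scaling (0.0061 and −0.20), and no heat difference is filled.

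**Figure D3:**
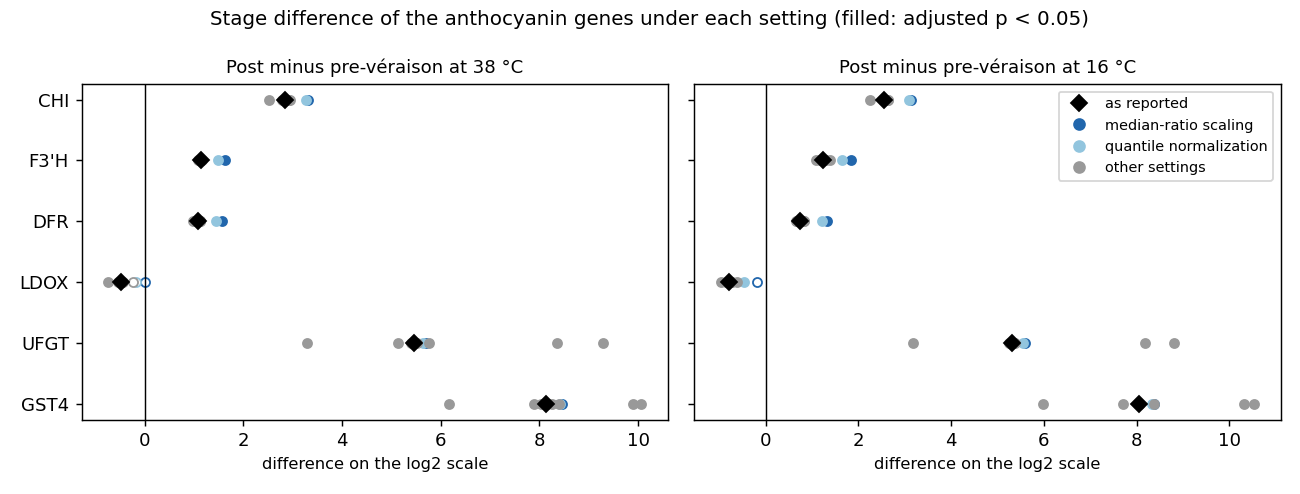
Post-véraison minus pre-véraison difference of each anthocyanin gene on the log2 scale, at 38 °C (left) and at 16 °C (right), as reported (black diamonds) and under every other setting tried (circles; filled where the adjusted p was under 0.05). CHI, F3'H, DFR, UFGT and GST4 stay to the right of 0 under every setting, whereas LDOX reaches 0.0061 at 38 °C with median-ratio scaling. UFGT and GST4 passed the main filter only through post-véraison libraries, so their kept direction adds no support.

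The second comparison asked what 1 hour at 38 °C did. Before véraison 0 of the 6 genes were called by limma, and limma voom on the recovered reads called 0. Of all tested genes 20.4% were called by limma, 7.96% higher and 12.4% lower, and 22.6% by limma voom. Without adjustment 1 of the 6, F3'H, was lower at p under 0.05, and 33.1% of all genes passed in either direction. F3'H differed by −0.27 ± 0.11 log2 units (95% interval −0.53 to −0.02, adjusted p = 0.12), and it was called without pre-véraison 16 °C replicate 1, at −0.42 (adjusted p = 0.035; range over the alternatives 0.035 to 0.50). The heated and unheated libraries of F3'H and of LDOX did not overlap, which held for 58.5% of all tested genes. CHI was at −0.06 (−0.28 to 0.15), DFR at 0.015 (−0.22 to 0.25) and LDOX at −0.13 (−0.50 to 0.24), so that no interval reached beyond −0.50 or 0.25. For UFGT and GST4, with 1 and 1 and with 5 and 3 reads in the heated and unheated groups, the rate ratios were 0.787 (95% interval up to 61.8) and 1.31 (0.255 to 8.45). By counting error alone, these intervals hold no rise beyond 61.8-fold for UFGT and 8.45-fold for GST4. Smaller differences were not detectable at this depth.

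After véraison the members again gave 0 of 6 calls by limma, and 0 by limma voom, against 1.25% of all tested genes called by limma, 1.09% higher and 0.161% lower, and 1.84% by limma voom. Without adjustment CHI and DFR were higher and F3'H lower at p under 0.05, 3 of 6, where 9.68% of all genes passed in either direction. DFR differed by 0.36 ± 0.10 log2 units (95% interval 0.13 to 0.60, adjusted p = 0.21) and F3'H by −0.38 ± 0.11 (−0.63 to −0.12, adjusted p = 0.23). CHI was at 0.22 ± 0.10 (0.01 to 0.44, adjusted p = 0.49). For these 3 genes the heated and unheated libraries did not overlap, which held for 40.3% of all tested genes. LDOX was at 0.18 (−0.19 to 0.55), UFGT at 0.13 (−0.31 to 0.58) and GST4 at 0.20 (−0.28 to 0.67), and their libraries overlapped for LDOX and UFGT but not for GST4. As rates of reads, the heated over unheated ratios were 1.30 for DFR, 1.17 for CHI, 1.16 for LDOX, 1.15 for GST4, 1.12 for UFGT and 0.773 for F3'H.

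Whether the heat difference itself changed with stage was tested as an interaction, the heat difference after véraison minus that before it. It was called for 0 of the 6 genes, and for 0 by limma voom, against 7.47% of all tested genes by limma, 3.95% higher and 3.53% lower, and 7.56% by limma voom. Without adjustment 1 of the 6, DFR, was higher at p under 0.05, and 21.3% of all genes passed in either direction. The value for DFR was 0.35 ± 0.15 log2 units (95% interval 0.02 to 0.68, adjusted p = 0.21), for LDOX 0.31 (−0.21 to 0.83) and for CHI 0.28 (−0.02 to 0.59). F3'H was at −0.10 (−0.46 to 0.25), with heat differences of −0.38 after and −0.27 before véraison. UFGT was at 0.14 (−0.49 to 0.77) and GST4 at 0.10 (−0.57 to 0.77). These intervals use a spread shared over the 4 groups, and the pseudocount holds pre-véraison values near 0 together. They therefore do not show the counting error of the few pre-véraison reads, which the rate ratios before véraison give.

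The other genes of the pathway were counted from lists of 54 symbols, of which 22 matched a listed gene and 19 were tested (LAR1, GST1 and the glucosyltransferase gene GT1 were below the filter). Of these 19, 9 were higher, 7 lower and 3 not called after véraison at 16 °C, where 14.9% of all tested genes were higher and 57.0% lower. At 38 °C 11 were higher, 5 lower and 3 not called, where 17.2% of all tested genes were higher and 53.0% lower. However, PAL, F3'5'H and MYBPA1 passed the filter only through post-véraison libraries, and MYB12 and FLS1 only through pre-véraison ones, FLS1 through the unheated pair alone, so the direction of any stage call for these 5 was fixed by the filter. Of the other 14 genes, 6 were higher, 5 lower and 3 not called at 16 °C, with a median of 0.20 against −0.52 for all genes, and 8, 4 and 2 at 38 °C, with a median of 1.06 against −0.45. The entry and core enzymes among these 14 numbered 5, of which 5 were higher at 38 °C and 4 at 16 °C.

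CHS3, a chalcone synthase gene and thus the step before CHI, was the most abundant of them, with 342 and 327 RPKM in post-véraison berries at 38 °C and 284 and 319 RPKM at 16 °C. In pre-véraison berries it had 5.39 and 2.74 RPKM at 38 °C and 1.94 and 2.55 RPKM at 16 °C. Its stage difference was 6.10 ± 0.21 log2 units at 38 °C and 6.55 ± 0.21 at 16 °C (limma adjusted p = 6.8e-09 and 5.1e-09). PAL, which starts the phenylpropanoid pathway and was below 1 RPKM in all pre-véraison libraries, differed by 4.86 and 5.13 at 38 °C and 16 °C, F3H, the enzyme between CHI and DFR, by 2.59 and 2.05, and CHS2 by 3.84 and 2.01, all called. For PAL the direction was fixed by the filter. CHS1 was called at 38 °C (1.43) and weakly at 16 °C (0.45, adjusted p = 0.038, lost without either pre-véraison 16 °C library or post-véraison 16 °C replicate 1, at adjusted p-values of 0.086, 0.12 and 0.32). The PAL, chalcone synthase and F3'5'H families hold near-identical copies, and how reads were shared among them is not given in the sources used here.

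F3'5'H, also below 1 RPKM in all pre-véraison libraries, differed by 2.64 ± 0.27 at 38 °C and 2.25 ± 0.27 at 16 °C (limma adjusted p = 9.2e-06 and 2.9e-05). It passed the filter only through post-véraison libraries, so this direction was fixed by the filter. The level of F3'H relative to this F3'5'H gene was 11.7 and 24.9 in post-véraison berries at 38 °C and 21.8 and 18.7 at 16 °C, against 195 and 185 in pre-véraison berries at 38 °C and 79.5 and 81.0 at 16 °C. The pre-véraison ratios rest on 8 to 24 reads of F3'5'H per library. F3'H exceeded this F3'5'H gene in every library, and by more before véraison. That stage difference of the ratio rests on the same low F3'5'H values and gives no separate support. Other F3'5'H copies did not enter the ratio, so the balance between the cyanidin and delphinidin branches was not measured.

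On the competing branches, FLS1 makes flavonols and LAR2 and ANR make tannin units. LAR2 was lower after véraison, by −2.87 ± 0.16 log2 units at 38 °C and −2.88 ± 0.16 at 16 °C (limma adjusted p = 1.1e-07 both). The summed level of LAR1, LAR2 and ANR was 2.53 and 2.53 RPKM in post-véraison berries at 38 °C and 2.95 and 2.12 RPKM at 16 °C, against 20.5 and 19.4 RPKM in pre-véraison berries at 38 °C and 18.7 and 19.6 RPKM at 16 °C. LAR2 draws on leucoanthocyanidin, the substrate of LDOX, whereas ANR uses the LDOX product. In RPKM (mean ± SD, n = 2 each), ANR was at 0.926 ± 0.438 in heated and 1.26 ± 0.510 in unheated post-véraison berries, and at 3.12 ± 1.66 in heated and 3.67 ± 0.446 in unheated pre-véraison berries. ANR was called lower at both temperatures (−1.05 and −1.06), a call lost with quantile normalization (adjusted p = 0.14 and 0.23), at 16 °C with median-ratio scaling (0.073), and without pre-véraison 38 °C replicate 1 (0.084), post-véraison 38 °C replicate 2 (0.068) or post-véraison 16 °C replicate 2 (0.057). FLS1 was lower at 16 °C (−1.59 ± 0.24, adjusted p = 1.6e-04) and not called at 38 °C; it reached 1 RPKM only in the unheated pre-véraison pair, which let it into the tests. Of the decoration and transport list only GST3, another glutathione S-transferase gene, was tested, and it was higher after véraison by 3.04 ± 0.18 at 38 °C and 2.39 ± 0.18 at 16 °C.

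**Figure D4:**
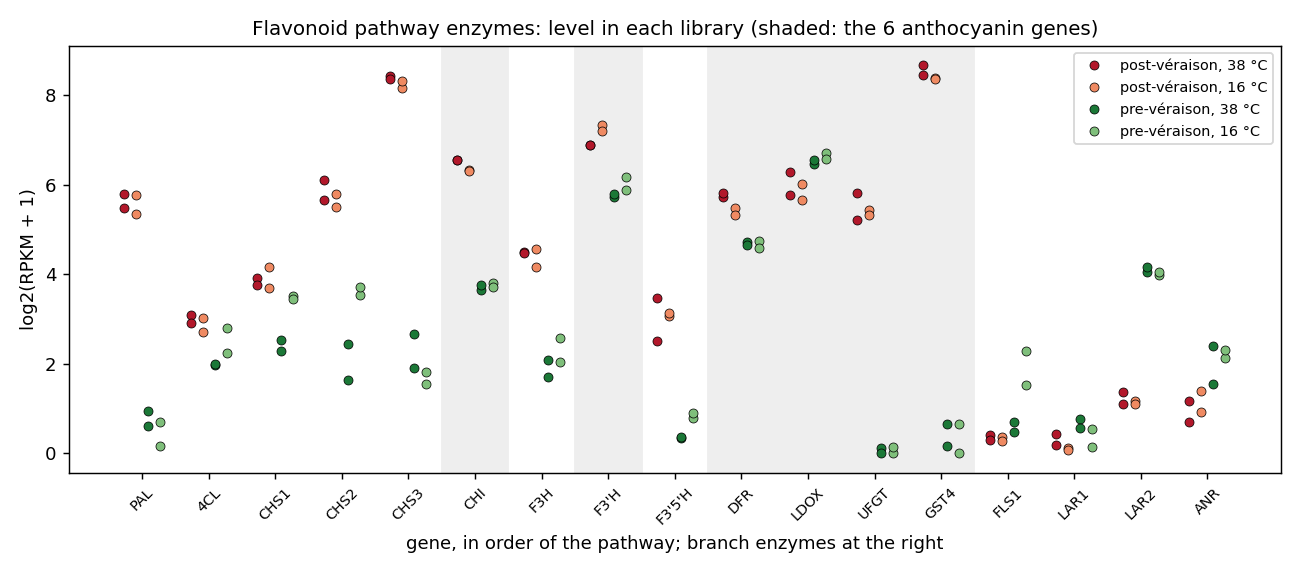
Level, as log2(RPKM + 1), of the flavonoid enzyme genes in each of the 8 libraries, with genes along the horizontal axis in pathway order, branch enzymes at the right and the 6 anthocyanin genes shaded; each point is 1 library, coloured by group. CHS3, UFGT and GST4 show the widest gaps between the stages, with stage differences at 16 °C of 6.55, 5.31 and 8.04 log2 units, while LDOX is high in all libraries.

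Regulators were divided. MYBPA1, a MYB activator of tannin genes, and MYB14, an activator of stilbene synthase genes, were higher after véraison, by 2.43 and 2.31 and by 1.16 and 1.10 log2 units at 38 °C and 16 °C. MYB12, listed at no more than 0.0846 RPKM in any post-véraison library, was lower (−2.90 and −3.51), as were the WD-repeat gene WDR1 (−1.41 and −1.54) and MYBC2-L1, a MYB repressor of flavonoid genes (−0.79 and −2.53); the MYBC2-L1 call at 38 °C was lost with median-ratio scaling (−0.33, adjusted p = 0.15) and with quantile normalization (−0.29, 0.19), and without pre-véraison 38 °C replicate 1 (0.064) or post-véraison 38 °C replicate 2 (0.055). The bHLH gene MYC1, a partner of MYB factors in this pathway, was lower at 16 °C (−0.55 ± 0.18, adjusted p = 0.019), a direction that turned with median-ratio scaling (0.028) and quantile normalization (0.0028) and a call lost without pre-véraison 16 °C replicate 2 (0.18) or either post-véraison 16 °C library (0.054 and 0.065). The bZIP gene bZIPC22 was higher at 38 °C (1.12 ± 0.18) and at −0.27 and not called at 16 °C (limma adjusted p = 0.19), and its pre-véraison level was itself lower at 38 °C (−1.78 ± 0.18, adjusted p = 6.1e-05). WDR2 was not called at either temperature. For MYBPA1 and MYB12 the direction was fixed by the filter. MYBA1 and MYBA2, the MYB genes that switch on UFGT in dark grapes, are not analysed here.

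Some of these pathway genes were called in the heat comparison before véraison, where 0 of the 6 anthocyanin genes were. Heat and the hour of sampling cannot be told apart there. UFGT and GST4 had so few pre-véraison reads that only a large rise with heat could have been detected. With 20.4% of all tested genes called, a count of 0 among the remaining anthocyanin genes says little. Whether the anthocyanin genes differed from the other pathway genes in their heat response was not tested. Before véraison 7 of the 19 were lower at 38 °C and 0 higher (7 and 0 by limma voom, and 9 and 1 without adjustment), with a median of −0.46 against −0.09 for all genes, of which 7.96% were higher and 12.4% lower. FLS1 entered the tests through the unheated pair alone, and without it 6 of 18 were lower. These heat responses were known from earlier results of these data. Over all genes the split of calls was 1335 higher and 2082 lower, and 1502 and 1488 with median-ratio scaling. MYBC2-L1 had 19.6 and 14.7 RPKM in heated and 84.1 and 65.6 RPKM in unheated pre-véraison berries, and bZIPC22 had 2.97 and 2.10 RPKM in heated and 11.7 and 10.4 RPKM in unheated ones. FLS1 had 0.399 and 0.618 RPKM heated and 3.86 and 1.88 RPKM unheated, from 4 and 7 against 30 and 17 reads. The call for MYC1 (−0.82) was lost without either heated pre-véraison library (adjusted p = 0.059 and 0.065), and that for MYB12 (−0.55, adjusted p = 0.0496) without any one of the 8 libraries (0.052 to 0.23). After véraison 0 of the 19 were called by limma or by limma voom, and 0 had p under 0.05 without adjustment, where 1.25%, 1.84% and 9.68% of all tested genes passed, shares at which a count of 0 calls by either test says little about 19 genes. CHS2, upstream of CHI, was among the genes lower before véraison at −1.58 ± 0.24, while CHI itself was at −0.06 ± 0.10.

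**Figure D5:**
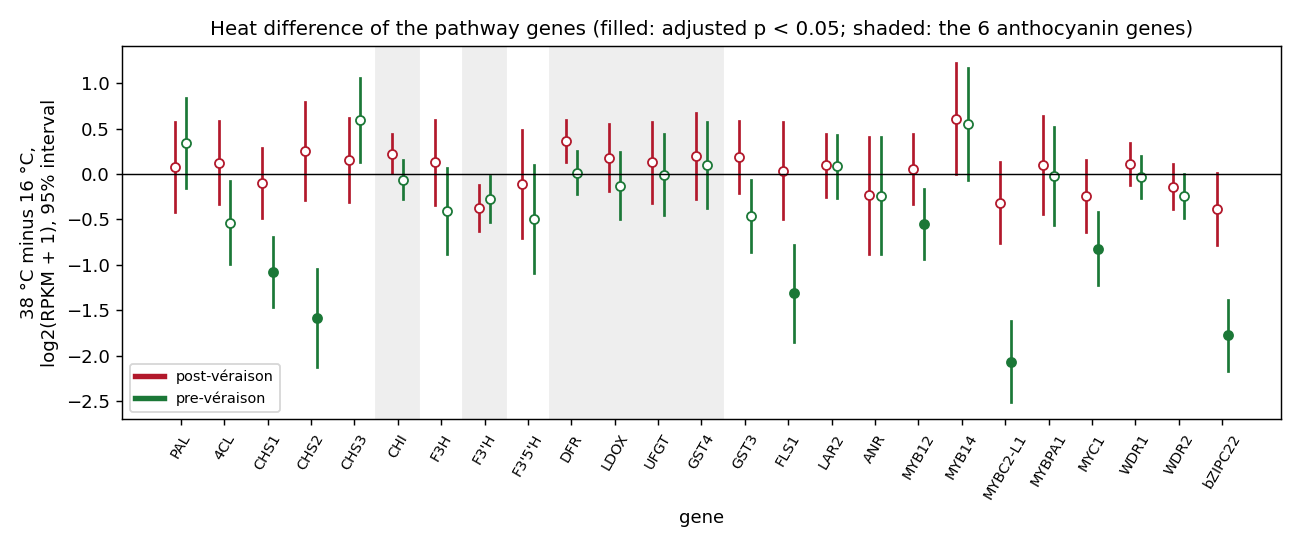
Difference in log2(RPKM + 1) between 38 °C and 16 °C with its 95% interval, for the 6 anthocyanin genes (shaded) and the 19 tested pathway genes, in post-véraison and pre-véraison berries; filled points passed limma's adjusted p of 0.05. All 7 filled points are pre-véraison and below 0, and none lies in the shaded columns.

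Likeness of pattern was measured, among 195 genes with a descriptive symbol, as the root mean square over the 8 libraries of the difference between centred log2(RPKM + 1) profiles, so that a low value means a similar course and size. The 6 genes did not follow one profile. F3'H and DFR were the most alike pair, at 0.334 log2 units, and LDOX and GST4 the least alike, at 4.37. UFGT and GST4 differed by 1.38.

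For CHI the nearest genes were MLO9 (0.195), the glutathione S-transferase gene GST3 (0.216) and PR10.2 (0.245). The nearest to F3'H were GT3 (0.183), CIPK10 (0.239) and the alcohol dehydrogenase gene ADH2 (0.251), and to DFR they were GS (0.108), ADH2 (0.132) and the cell wall invertase gene CWINV (0.160). LDOX was nearest to GFH2 (0.177), MYC2 (0.179) and METK4 (0.182). UFGT lay nearest to the stilbene synthase gene VINST1 (0.318) and to the ripening genes MRIP1 (0.397) and TL3 (0.469), and GST4 to the ripening gene GRIP22 (0.373), the germin-like gene GER7 (0.441) and CHS3 (0.935). With a pseudocount of 0.1 the genes named for UFGT were CHS3, TL3 and GRIP22, with 1 of the 3 shared, and UFGT itself entered the 3 nearest to GST4; the other 5 genes kept 2 or 3 of their 3.

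In the RefSeq annotation of assembly ASM3070453v1 the 6 genes lie on 6 different chromosomes, so none neighbours another. Of the 12 nearest listed genes on either side of them 9 were tested. Their calls were mixed, with 6 of 9 called in the stage comparison at 38 °C and 5 of 9 at 16 °C, against 70.3% and 71.9% of all tested genes. GST4's tested neighbour, LOC100246195, was lower after véraison at 16 °C (−3.48, limma adjusted p = 1.8e-08), opposite to GST4. The nearest listed genes on either side of F3'H were the heat shock chaperone gene HSP101 and LOC100263810. HSP101 was higher at 38 °C by 3.09 log2 units after and 7.03 before véraison (adjusted p = 1.37e-05 and 2.85e-09), whereas F3'H was at −0.38 and −0.27. LOC100263810 took values close to those of F3'H, with stage differences of 1.17 at 38 °C and 1.31 at 16 °C (adjusted p = 1.1e-05 and 4.3e-06) and heat differences of −0.35 after and −0.20 before véraison, neither called.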

How the data were processed

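Single-end Illumina mRNA libraries were aligned by the authors with tools that include Bowtie 0.12.7 and TopHat 1.2.0, per the submitters' processing notes. The deposited values are RPKM, 1 value per gene and library, with no pooling. For the genome build, annotation, counting tool, strand setting and multiply matching reads, the entry is: not given in the sources used here. Of 25771 gene IDs, 18647 matched the RefSeq table (assembly ASM3070453v1), which was used only for names and neighbours.

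RPKM values of low genes are whole multiples of 1 read, and whole reads and a whole gene length were recovered for 20845 of 20845 genes above 0 in at least 3 libraries (100% within 0.05 reads). The recovery was also run on simulated data, with the size of the first library given, so that size was not itself tested. The main test was limma 3.58.1 in R 4.3.3 on log2(RPKM + 1), with an intensity trend, 4 group means over 8 libraries (4 residual degrees of freedom) and Benjamini-Hochberg adjustment over the 16777 genes that reached 1 RPKM in 2 or more libraries. A difference on this scale understates the change of low genes. P-values rest on the spread between 2 biological replicates per group, pooled over the 4 groups. For each gene this spread was drawn towards the trend of all tested genes (6.06 prior degrees of freedom). Figures used Python 3.11.15 and matplotlib 3.10.9.

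Alternatives were other pseudocounts, filters, scalings and variance settings, limma voom on the recovered reads, the replicate number as a block, and leaving out each library. All 6 genes and every pathway gene with a call were named, and for likeness the 3 nearest genes with a mean of at least 5 RPKM in their highest group. The 6 genes and the lists were chosen with earlier results of these data known. Sequences are not analysed here, and promoter motifs were therefore not counted.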

Additional observations from a re-analysis of the deposited data

Results flagged for a closer look

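None of the 6 anthocyanin genes met a rule for a closer look. Of the pathway genes around them, 5 had a heat difference after véraison that differed from that before véraison by limma's interaction test. CHS2 had an interaction of 1.83 ± 0.34 (SE) log2 units (adjusted p = 0.00955), MYBC2-L1 of 1.75 ± 0.28 (0.00435) and bZIPC22 of 1.39 ± 0.25 (0.0078). FLS1 had 1.35 ± 0.34 (adjusted p = 0.039) and CHS1 0.98 ± 0.25 (0.040). The calls for CHS1 and FLS1 were lost with median-ratio scaling (adjusted p = 0.077 and 0.060), a pseudocount of 5 (0.062 and 0.051) and no filter (0.085 and 0.069). That for CHS1 was also lost with quantile normalization (0.051) and without the intensity trend (0.056). That for FLS1 was also lost with a pseudocount of 0.1 (0.073) and by limma voom (0.14). Both were lost when any of 7 of the 8 libraries was left out, with values from 0.74 to 1.21 for CHS1 and 0.97 to 1.73 for FLS1. Of the 19 tested pathway genes, 5 were called higher and 0 lower in this comparison (4 and 0 by limma voom). Of all tested genes, 3.95% were called higher and 3.53% lower. All 5 of these pathway genes were also called lower in the heat comparison before véraison, which enters the interaction. The lists were chosen with earlier results of these data known, those heat responses among them. The count set against these shares therefore restates a known pattern and gives no separate support. FLS1 rests on 3 to 30 reads per library and passed the filter only through the unheated pre-véraison berries, the group in which it is high, so its direction was fixed by the filter; without it 4 of 18 were called.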

How the results depend on the processing

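CHI, F3'H, DFR, UFGT and GST4 kept their direction and call in both stage comparisons under all settings run, with log2 differences at 16 °C of 2.26 to 3.14, 1.09 to 1.84, 0.66 to 1.33, 3.18 to 8.80 and 5.98 to 10.5. For UFGT and GST4, which passed the main filter only through post-véraison libraries, the kept direction adds no support. LDOX at 38 °C was at 0.0061 with median-ratio scaling and not called with quantile normalization (−0.18, adjusted p = 0.38) or without a filter (adjusted p = 0.050); without single libraries the count called at 38 °C was 5 to 6 and LDOX ran from −0.74 to −0.23. Before véraison the heat count was 0 to 1 without single libraries, and CHI was at 0.0090 with median-ratio scaling. Uncalled heat values crossed 0 without single libraries: before véraison DFR ran from −0.062 to 0.091, UFGT from −0.073 to 0.061 and GST4 from −0.23 to 0.42; after it LDOX from −0.070 to 0.43 and UFGT from −0.18 to 0.44; and the interaction for F3'H from −0.25 to 0.046, UFGT from −0.17 to 0.44 and GST4 from −0.23 to 0.43. The GST4 interaction was −0.42 with a pseudocount of 0.1 and −0.46 by limma voom. MYC1 at 16 °C was at 0.028 with median-ratio scaling and 0.0028 with quantile normalization. The cause of these changes was not tested. The interaction count of pathway genes was 3 in place of 5 with a pseudocount of 5, no filter or median-ratio scaling and without 5 of the libraries; over all genes the heat count after véraison was 210, and 36 when only the libraries compared were fitted, 104 and 107 without post-véraison 38 °C replicate 1 or 2; the interaction count of 1254 was 696 and 748 without these and 711 without pre-véraison 38 °C replicate 2, and the heat count of 3417 before véraison was 2013 without the last. With median-ratio scaling the interaction split was 412 higher and 624 lower, against 662 and 592. Fitting the replicate number as a block left the counts at 6, 6, 0, 0 and 0 of the 6 genes; deviations of same-numbered libraries correlated at −0.0522 to 0.0255, so the numbers were not shown to pair the samples, and under the block MYB12 before véraison had an adjusted p of 0.065. UFGT and GST4 before véraison rest on 0 to 4 reads per library, which limits any statement on heat there.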

Other observations

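F3'H was the only one of the 6 genes whose heated libraries lay below the unheated ones at both stages, which was seen before the following contrast was chosen. The mean of the heat differences over both stages, in the same fit, was −0.32 ± 0.08 (SE) log2 units for F3'H (95% interval −0.50 to −0.15, limma adjusted p = 0.022). Because the contrast was chosen after that pattern was seen, its p-value restates the pattern and gives no separate support. Of all tested genes, 14.2% were called in this contrast and 7.38% were lower. The other 5 genes were not called (adjusted p between 0.13 and 0.92, with DFR at 0.19 ± 0.07). Over the alternatives the adjusted p for F3'H ran from 0.0052 to 0.080: the count of called genes among the 6 was 0 with median-ratio scaling (adjusted p = 0.055) and with no intensity trend (0.061). It was also 0 without pre-véraison 16 °C replicate 2 (0.054) or pre-véraison 38 °C replicate 1 or 2 (0.080 and 0.057), and without post-véraison 16 °C replicate 1 (0.072) or post-véraison 38 °C replicate 1 or 2 (0.071 and 0.079). By reads, the heated over unheated ratio for F3'H was 0.773 after véraison (95% interval 0.743 to 0.804) and 0.816 before it (0.762 to 0.873), counting error only. Heat and the hour of sampling cannot be told apart.

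HSP101, the nearest listed gene on one side of F3'H, had 65.2 and 45.7 RPKM in heated and 4.74 and 6.45 RPKM in unheated post-véraison berries.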
